A study of Mus musculus with 12 samples.

Results

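A set of 40 genes of extracellular matrix glycoproteins and proteoglycans, collagens left out, was followed through 4 groups of cultured mouse cells. They were chosen by gene symbol from a written list, and all 40 were found among the 24537 genes of the deposited expression table. The list was made with earlier results of these data known, so its counts below are not those of an independent set. The groups were Pdgfra (+) adipose-derived stromal cells (ADSCs) from subcutaneous adipose tissue, 2 kinds of iSEP (in vitro and in vivo), and keratinocytes grown from back skin. iSEPs are induced stratified epithelial progenitor cells. The in vitro iSEPs are epithelial cells made from Pdgfra (+) ADSCs in culture. The in vivo iSEPs were converted from such cells within the animal, recovered from the resulting epithelial tissue and then grown as primary cultures. All groups carry the strain Pdgfra-creERxLSL-tdTomato, in which the Pdgfra promoter drives an inducible Cre recombinase that switches on a red reporter. The 12 libraries are 4 from each of 3 mice, with 1 library per mouse in each group and no age given. ADSCs were grown in DMEM with serum and the other 3 groups in serum-free keratinocyte medium, so in every comparison with ADSCs cell type and medium cannot be told apart.

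Stromal cells build an interstitial matrix. Adhesive glycoproteins such as fibronectin link cells to fibres, fibrillins and fibulins assemble microfibrils and elastic fibres, and small leucine-rich proteoglycans such as decorin and biglycan bind collagen. Latent TGF beta binding proteins store that growth factor in the matrix. Keratinocytes rest on a basement membrane, in which nidogens, perlecan and agrin join laminin to collagen IV or to the cell.

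The promoters of 3 members, picked by their expression, are given as examples and do not span the range of sequence among these genes. Postn was the member with the highest mean level in ADSCs. On the log2 scale of the tests below it also fell furthest in the in vivo iSEPs. Mfap5, however, kept a smaller part of its ADSC mean there (0.0185% against 0.0928% for Postn). Without the in vivo iSEPs of mouse 3 these were 0.0190% and 0.0396%. On the same log2 scale Sparc had the largest excess of in vivo iSEPs over keratinocytes, and Agrn rose most in iSEPs. Each line holds the 250 bases before the RefSeq start in GRCm38.p6, 5′ to 3′ on the gene's strand, at chr3:54360857-54361106 (+), chr11:55420081-55420330 (-) and chr4:156197489-156197738 (-). Capitals mark the motifs TATAAA (the TATA box core) and GGGCGG (the GC box), read on both strands, where matches may share a base.
Postn: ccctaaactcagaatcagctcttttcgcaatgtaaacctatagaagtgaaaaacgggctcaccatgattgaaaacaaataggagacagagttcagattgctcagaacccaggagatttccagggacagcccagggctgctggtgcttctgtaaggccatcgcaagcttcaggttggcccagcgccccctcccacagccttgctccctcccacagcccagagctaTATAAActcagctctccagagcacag
Sparc: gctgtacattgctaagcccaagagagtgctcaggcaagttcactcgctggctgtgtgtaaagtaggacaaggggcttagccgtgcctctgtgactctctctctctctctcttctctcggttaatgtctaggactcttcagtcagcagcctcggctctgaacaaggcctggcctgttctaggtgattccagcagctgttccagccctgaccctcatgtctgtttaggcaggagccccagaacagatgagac
Agrn: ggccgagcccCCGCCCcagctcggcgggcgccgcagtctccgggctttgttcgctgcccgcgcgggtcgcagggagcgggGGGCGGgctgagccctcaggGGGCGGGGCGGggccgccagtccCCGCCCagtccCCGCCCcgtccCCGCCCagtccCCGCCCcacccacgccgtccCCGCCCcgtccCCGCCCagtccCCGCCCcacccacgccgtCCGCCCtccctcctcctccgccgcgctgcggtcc
In Postn the TATAAA match lay 26 to 21 bases before the start. Agrn held 12 matches of GGGCGG, a GC content of 83.6% and an observed-to-expected CpG ratio of 0.852. The CpG ratio was 0.22 in Sparc, whose window held neither motif, and 0.244 in Postn. Promoters of 29 of the 40 members were in the RefSeq table, and that of Fn1 was not among them. TATAAA was found in 6 of the 29 (20.7%, against 12.4% of all 32851 windows of that length) and GGGCGG in 17 (58.6%, against 32.7%). TGANTCA, bound by AP-1 factors, was found in 3 (10.3%, against 6.75%), and GGAATG, bound by TEAD factors, in 3 (10.3%, against 12.6%). The median CpG ratio was 0.390 in the members and 0.374 in all windows. A match describes the letters only.

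Expression is given as FPKM, the fragments per kilobase of transcript scaled to library depth, as deposited. The libraries held an estimated 21010000 to 27770000 reads in the genes of the table. Genes of at least 1 FPKM in at least 3 libraries were tested with limma on log2(FPKM + 1), and calls were made where the adjusted p (Benjamini-Hochberg over all 12364 genes kept) was below 0.05. Every log2 difference is on that scale, on which low genes appear to change less than they do. Of the 40 members 36 were kept. Sparcl1, Tnxb, Eln and Lum were not, and every one of their values outside ADSCs was below 1 FPKM. The labelled cell types were checked against markers. The summed level of 11 stromal markers was 6695 to 8467 FPKM in ADSCs, 109.5 to 285 in in vitro iSEPs, 67.8 to 186 in the in vivo iSEPs and 34.5 to 42.7 in keratinocytes, and that of 10 keratinocyte markers 13.2 to 15.2, 20991 to 26874, 12222 to 23404 and 23457 to 25283. Of 5 adipocyte markers Adipoq and Plin1, which define the type, were at 0 in all 12 libraries and Cidec and Lep at most 0.607 FPKM, while Fabp4 had 17.4 to 24.9 FPKM in ADSCs, 11.7 to 20.0 in in vitro iSEPs and at most 6.42 elsewhere. The summed levels of 5 markers each of endothelial cells, melanocytes and immune cells did not exceed 57.4 FPKM in a library, the highest being the immune sum in the ADSCs of mouse 2, where Lyz2 had 50.5 FPKM. The sum of 5 smooth muscle and pericyte markers was 1519 to 3138 FPKM in ADSCs, 359 to 566 in in vitro iSEPs, 802 to 2983 in the in vivo iSEPs and 185 to 440.1 in keratinocytes, nearly all of it Acta2 outside ADSCs. That of 5 neural and glial markers reached 117.5 FPKM in the in vivo iSEPs of mouse 1, nearly all of it Tubb3 (117.2), with Sox10, which defines glial cells, at most 0.267 in all 12 libraries. The library of in vivo iSEPs from mouse 3 differed from the other 2 of its group. There 149 genes lay at least 4-fold from both other libraries of the group, against 0 to 61 in the other 11 libraries, and Fn1, Spp1, Dcn and Bgn were the members among them, all higher. Members' values in in vivo iSEPs that moved by more than 1.5 times without that library, or whose call changed, are therefore in most cases also given without it. Log2 differences and counts of calls for the marker lists and the other gene lists are given with all libraries only.

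Together the 40 genes made up 5.68% of all FPKM in ADSCs, where their summed level was 18562 ± 1083 FPKM (mean ± SD, n = 3 in each group). The sum was 1691 ± 660 in in vitro iSEPs, 2137 ± 1669 in the in vivo iSEPs and 1639 ± 37.4 in keratinocytes, or 9.11%, 11.5% and 8.83% of the ADSC mean. In mouse order the in vivo iSEP libraries held 825, 1573 and 4015 FPKM, so that of mouse 3 was far above the others, and without it the mean was 1199, or 6.46% of the ADSC mean. What made up the sum also differed. Postn, Thbs1 and Sparc together supplied 43.4% to 51.0% of it in ADSCs. Thbs1, Sparc and Spp1 supplied 59.1% to 61.1% in in vitro iSEPs, and Thbs1, Spp1 and Fbln2 supplied 59.1% to 65.9% in keratinocytes.

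**Figure D1:**
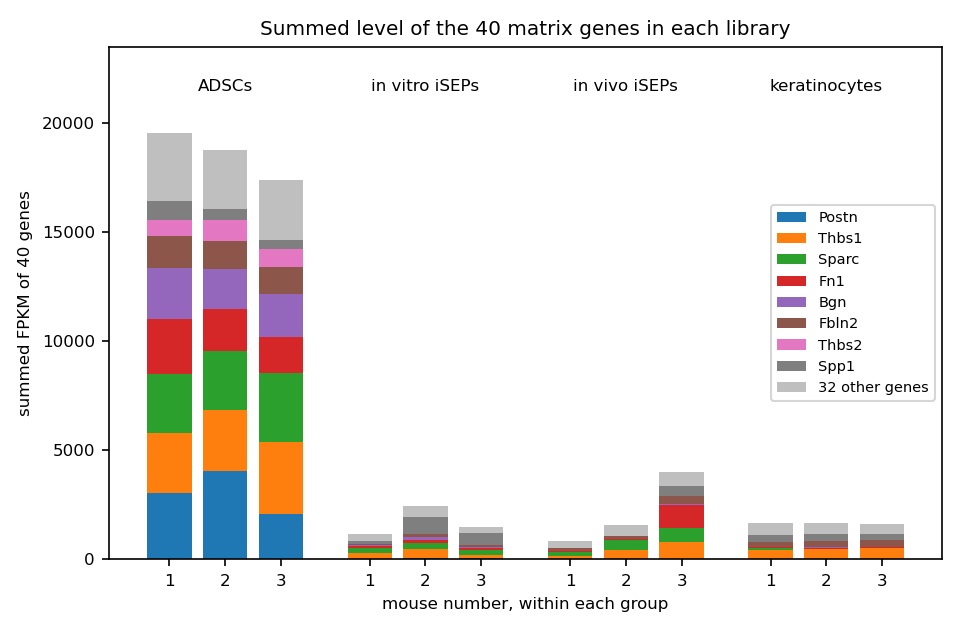
Summed FPKM of the 40 matrix genes (vertical axis) in each of the 12 libraries, by group and mouse number, with the 8 genes of highest mean in ADSCs in colour and the other 32 in grey. ADSC bars lie between 17395 and 19533 FPKM, and the tallest bar outside ADSCs is that of the in vivo iSEPs of mouse 3, with 4015.

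Most members were lower in iSEPs than in ADSCs. In in vitro iSEPs 28 of the 36 fell and 3 rose, where 21.7% of all genes tested were lower and 32.1% higher. The members' median log2 difference was -3.51, and that of all genes 0.15. In in vivo iSEPs 30 fell and 2 rose, against backgrounds of 20.0% lower and 27.6% higher, with a median of -3.46 (all genes 0.14). Without mouse 3 these counts were 30 and 2 against 20.5% and 30.3%, and the members' median was lower. It then lay between the values of Thbs3 (-3.95) and Nid2 (-4.41). In keratinocytes 27 fell and 2 rose, against 20.7% and 32.8%, with a median of -3.54 (all genes 0.18). The 3 comparisons share the ADSC libraries. Fbn2, Mfap2, Mfap4, Nid2, Fmod and Ogn are among the members that fell in each, and reached 1 FPKM in no library outside ADSCs. They passed the filter through ADSCs alone, so the direction of their change was fixed in advance and adds nothing to these counts. In these bulk cultures fewer cells of a stromal kind and less RNA per cell cannot be told apart. All 11 stromal markers fell in each of the 3 comparisons as well, with medians of -3.81, -5.86 and -5.99, and their part in the members' fall was not tested. Scaling each library to a common median lowered all log2 differences from ADSCs, by 0.16, 0.12 and 0.19 in the order above. It left 28 and 2, 30 and 2, and 28 and 2 members lower and higher, while the share of called genes that were higher moved from 59.7% to 47.3% for in vitro iSEPs, from 58.0% to 48.1% for in vivo iSEPs and from 61.4% to 46.8% for keratinocytes.

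**Figure D2:**
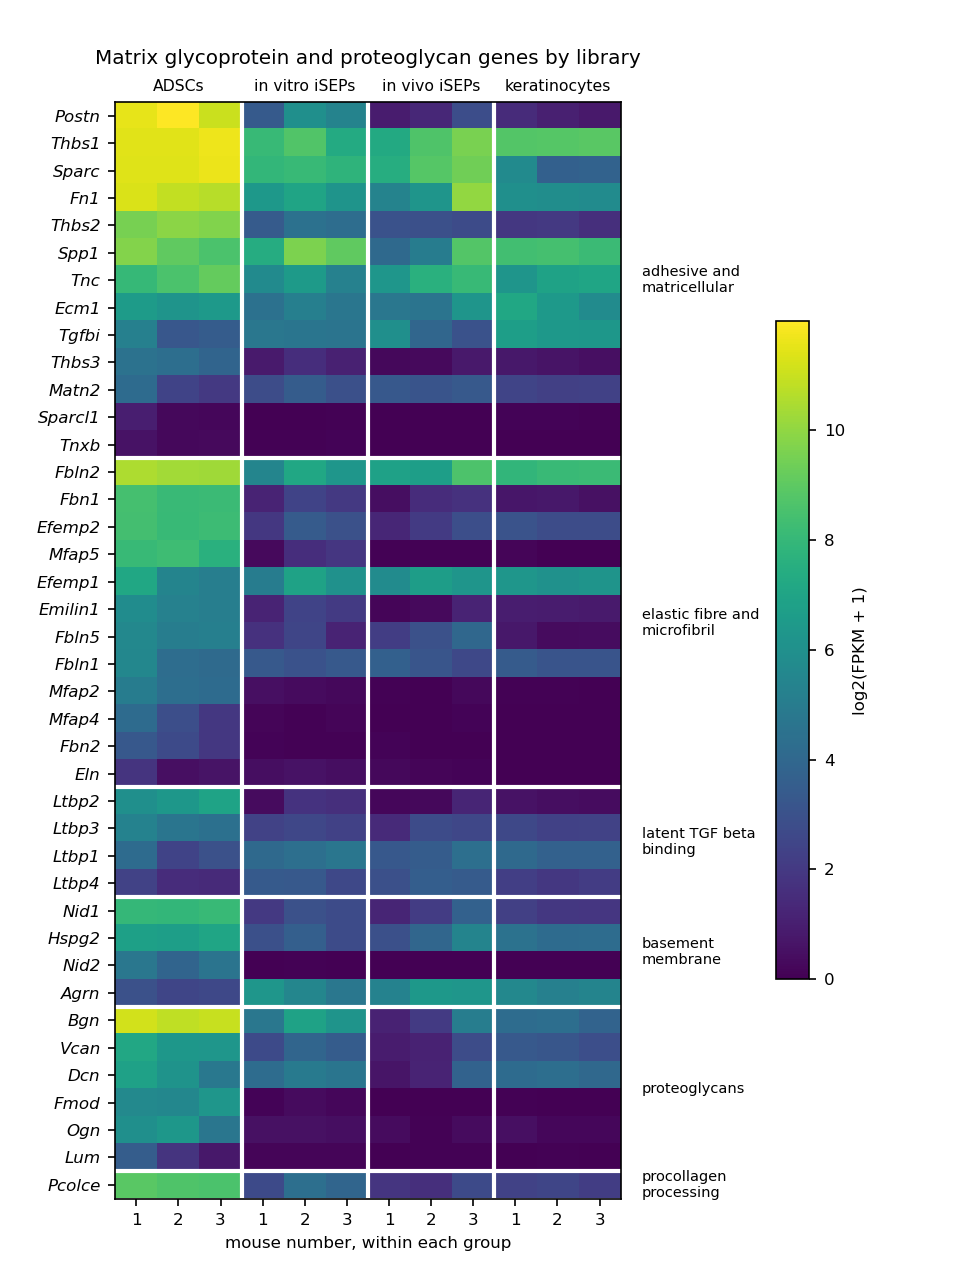
Heat map of the 40 matrix genes (rows, ordered by role and by mean level in ADSCs) in 12 libraries (columns, by group and mouse), with colour showing log2(FPKM + 1). Most rows are bright in the 3 ADSC columns and dark elsewhere, while Agrn is brighter outside ADSCs and Fn1 is bright again in the in vivo iSEPs of mouse 3.

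The remaining level, the mean FPKM as a percent of the ADSC mean, was taken for the 30 members with at least 10 FPKM in ADSCs. That limit favours members that are high in ADSCs, and it leaves out 6 of the 36 tested. Of these Agrn (885% in in vitro and 1186% in in vivo iSEPs), Ltbp4 (308% and 354%), Ltbp1 (212% and 135%) and Matn2 (92.1% and 104%) stood near or above their ADSC mean, and Fbn2 and Mfap4 far below it. In in vitro iSEPs 5 of the 30 members were under 1%, 17 between 1% and 10%, 5 between 10% and 50%, and 3 at 50% or more. The 5 lowest were Fbn1, Fmod, Mfap5, Nid2 and Ogn. The 8 at 10% or more were Dcn, Ecm1, Efemp1, Fbln1, Ltbp3, Spp1, Tgfbi and Tnc. In in vivo iSEPs 11 were under 1%, namely those 5 with Bgn, Ltbp2, Mfap2, Pcolce, Postn and Thbs2, and 13 were at 10% or more. Without mouse 3, an alternative chosen after the data were seen, 14 were under 1% and 8 at 10% or more, and Fn1, Spp1, Thbs1, Fbln2 and Hspg2 were no longer among the latter. In keratinocytes 12 were under 1%, the 11 of in vivo iSEPs and Sparc, and 11 were at 10% or more. The median remaining level was 6.62% in in vitro iSEPs, 2.46% in the in vivo iSEPs (1.11% without mouse 3) and 2.13% in keratinocytes. Over all 36 members tested, a choice made after the data were seen, the medians were 6.78%, 4.75% (1.25% without mouse 3) and 2.5%. For the 11 stromal markers they were 7.86%, 1.2% (0.305% without mouse 3) and 1.46%.

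**Figure D3:**
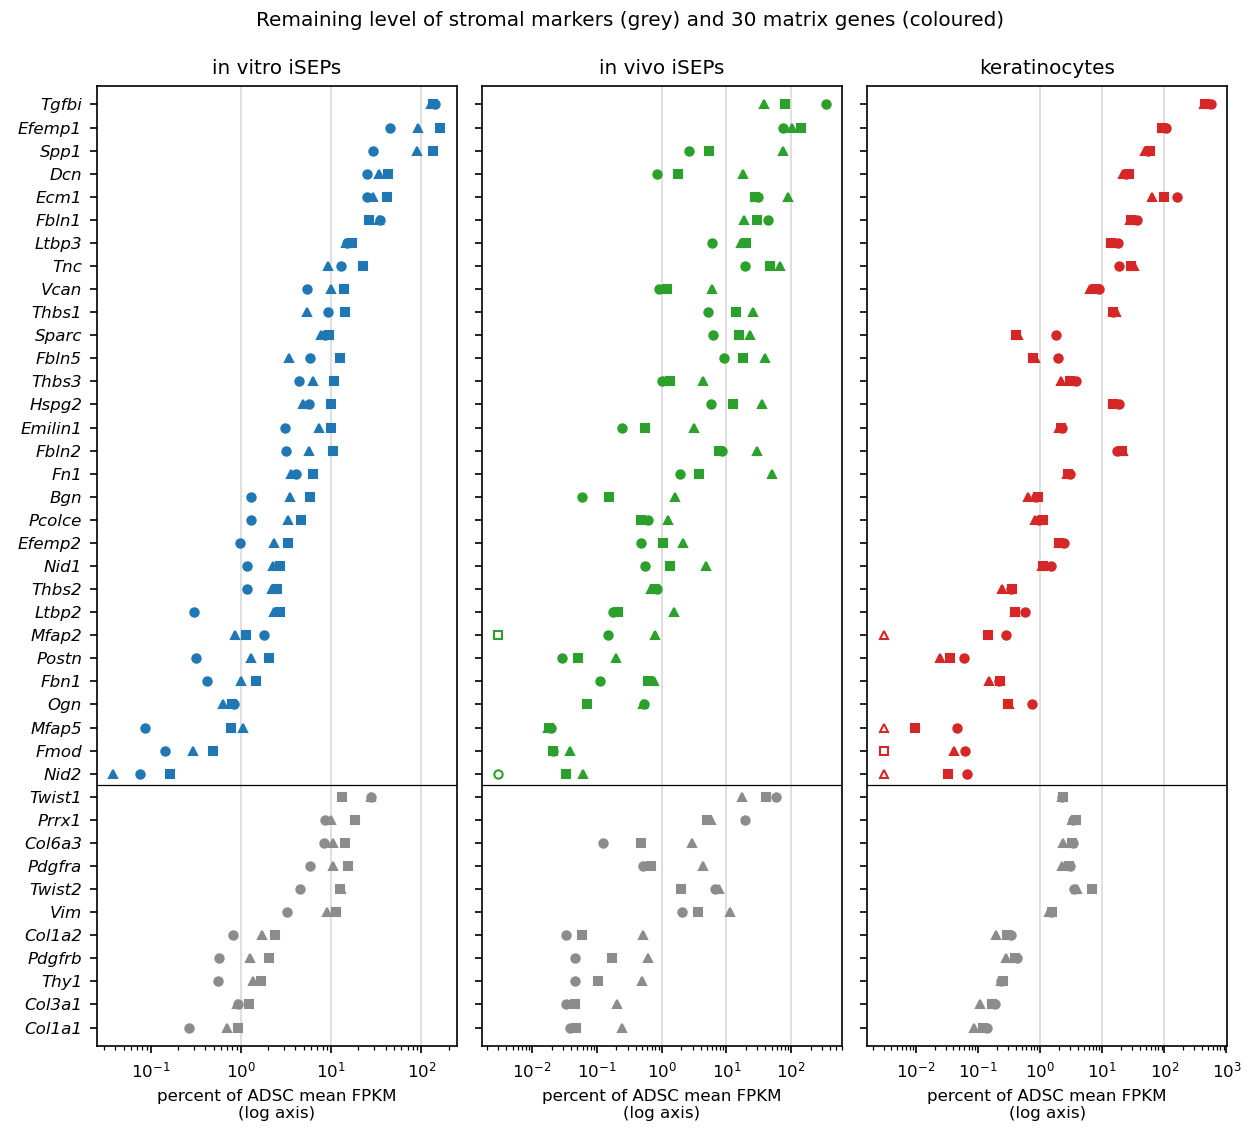
Remaining level of 30 matrix genes (coloured) and 11 stromal markers (grey) as a percent of the ADSC mean FPKM on log axes, with a symbol for each library (circle, mouse 1; square, mouse 2; triangle, mouse 3). Open symbols at the left edge are values of 0, and Sparc lies between 6.20% and 23.4% in the iSEP panels but at or below 1.81% in keratinocytes.

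Sparc encodes osteonectin, a secreted calcium- and collagen-binding glycoprotein (mm10 chromosome 11, 55394159 to 55420080). It had 2716, 2734 and 3152 FPKM in the ADSCs of mice 1, 2 and 3, 241, 272 and 222 in in vitro iSEPs, 178, 452 and 670 in the in vivo iSEPs, and 52.0, 11.8 and 12.7 in keratinocytes. The 3 ADSC libraries were highest, all 6 iSEP libraries lay between them and the keratinocytes, and neither kind of iSEP overlapped keratinocytes. Sparc fell from ADSCs to in vitro iSEPs by 3.54 ± 0.54 (log2 difference ± standard error, adjusted p = 0.00023) and fell by 2.92 ± 0.54 to in vivo iSEPs (adjusted p = 0.00102). It was nevertheless above keratinocytes, by 3.55 in in vitro iSEPs (adjusted p = 0.00307) and by 4.17 in the in vivo iSEPs (adjusted p = 0.0015). Without mouse 3 the latter was 3.76 (adjusted p = 0.00172). The remaining level was 8.55% in in vitro iSEPs, 15.1% in the in vivo iSEPs (11% without mouse 3) and 0.890% in keratinocytes. The 2 kinds of iSEP overlapped and were not told apart (0.63 in vivo over in vitro, 95% interval -0.57 to 1.82, adjusted p = 0.665).

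Fn1, which encodes fibronectin, the ligand of several integrins (chromosome 1, 71585473 to 71653234), showed another pattern. It had 2561, 1897 and 1654 FPKM in ADSCs, 82.0, 127 and 73.2 in in vitro iSEPs, 39.7, 75.9 and 1039 in the in vivo iSEPs, and 62.1, 57.0 and 54.8 in keratinocytes. All iSEP libraries but that of mouse 3 in vivo lay between 39.7 and 127 FPKM. Every in vitro iSEP library lay above every keratinocyte library, while the in vivo libraries overlapped the keratinocytes. Fn1 fell by 4.44 ± 0.89 in in vitro iSEPs (adjusted p = 0.00148) and fell by 3.76 ± 0.89 in the in vivo iSEPs (adjusted p = 0.00479), where without mouse 3 it fell by 5.16 (adjusted p = 2.28e-07). The remaining level was 4.62% in in vitro iSEPs and 2.84% in keratinocytes, and in the in vivo iSEPs 18.9%, or 2.84% without mouse 3. Against keratinocytes neither iSEP difference passed the test, at 0.65 in in vitro iSEPs (95% interval -1.31 to 2.61, adjusted p = 0.681) and 1.33 in the in vivo iSEPs (-0.63 to 3.29, adjusted p = 0.424). Without mouse 3 the in vivo value was -0.07 (adjusted p = 0.924). In the in vivo iSEPs of mouse 3 the simple epithelial keratin genes Krt8 and Krt18 had 102.9 and 95.5 FPKM, against 0.159 and 0.166, and 2.79 and 2.66, in the in vivo iSEPs of mice 1 and 2. Keratinocytes also expressed both, with 21.9 to 33.6 FPKM of Krt8 and 27.5 to 37.3 of Krt18. The in vitro iSEPs had 0.562 to 7.17 and 4.68 to 24.4. In the in vivo iSEPs of mouse 3 the 10 keratinocyte markers summed to 12222 FPKM, against 23404 and 20117 in mice 1 and 2. Krt5, a basal keratin gene, had 3410 there against 9804 and 9252. The sum of the 11 stromal markers was highest there, but not each of them was: Col1a1 had 4.26 FPKM against 0.673 and 0.821, and Twist1 had 5.48 against 18.5 and 12.9. Of the 5 smooth muscle and pericyte markers Acta2 had 2943 FPKM there against 798 and 2660. Myh11 had 7.78 against 0.071 and 1.90, and Cnn1 31.4 against 4.11 and 13.9. Rgs5 and Des did not exceed 0.097 FPKM in any in vivo iSEP library. The part of these in the Fn1 value was not tested.

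**Figure D4:**
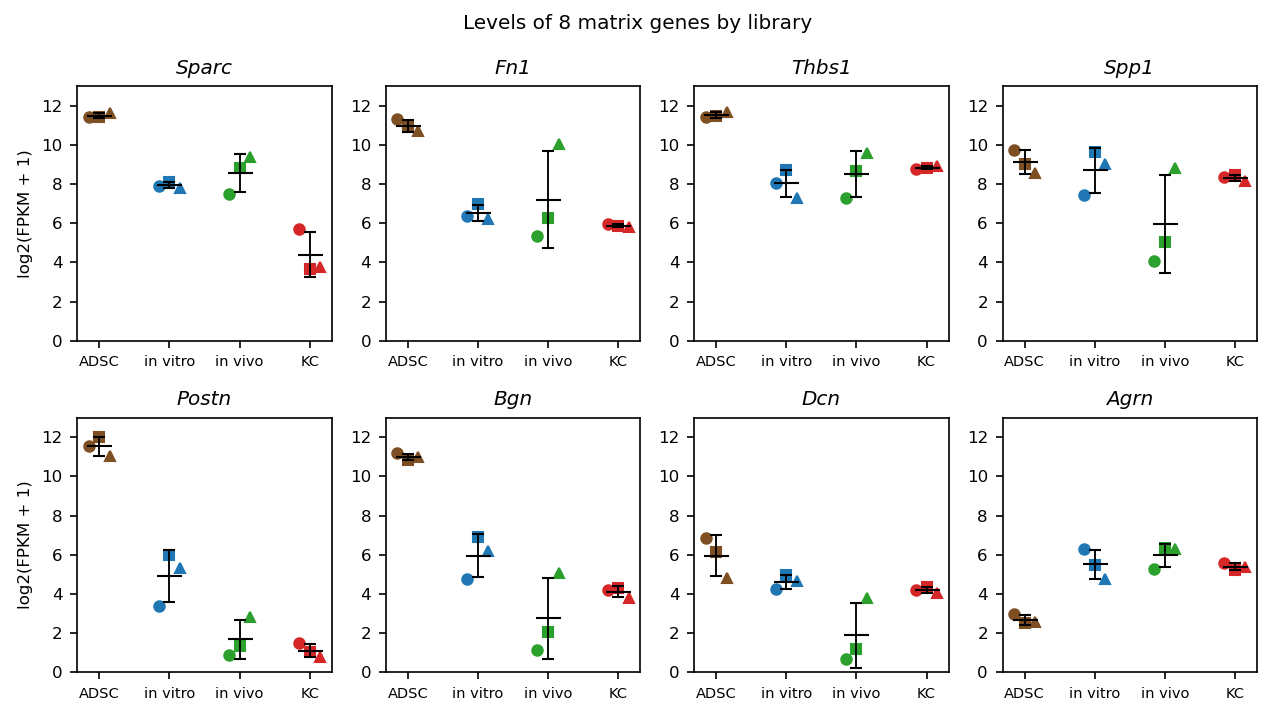
Levels of 8 matrix genes as log2(FPKM + 1) by group, with a symbol per mouse (circle 1, square 2, triangle 3), the mean as a long bar and the SD as whiskers (n = 3; KC, keratinocytes). Sparc in both kinds of iSEP lies between ADSCs and keratinocytes, and the triangle of mouse 3 is the highest in vivo value of Fn1, Spp1, Bgn and Dcn.

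Most of the other adhesive and matricellular genes were also lower than in ADSCs. Beside Sparc and Fn1 9 were tested, of which 6 fell and none rose in in vitro iSEPs, and 7 fell and none rose in the in vivo iSEPs. Of all genes 21.7% were lower and 32.1% higher in the former, and 20.0% and 27.6% in the latter. Postn encodes periostin, a matricellular protein of wounds and stroma (chromosome 3, 54361107 to 54391041). It had 3019, 4045 and 2078 FPKM in ADSCs, 9.59, 61.5 and 39.5 in in vitro iSEPs, 0.872, 1.54 and 6.07 in the in vivo iSEPs, and 1.78, 1.06 and 0.738 in keratinocytes. The in vitro iSEPs stood above both other epithelial groups in every library, and in vivo iSEPs overlapped keratinocytes. Postn fell by 6.62 in in vitro iSEPs (adjusted p = 5.58e-06) and fell by 9.83 in the in vivo iSEPs (adjusted p = 2.42e-07). In vitro iSEPs were above keratinocytes by 3.80 (adjusted p = 0.00422).

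The thrombospondin genes encode multimeric matricellular proteins that bind cells and matrix. Thbs1 had 2744, 2793 and 3302 FPKM in ADSCs, 269, 420 and 158 in in vitro iSEPs, 153, 407 and 761 in the in vivo iSEPs, and 435, 445 and 486 in keratinocytes. It fell by 3.48 in in vitro iSEPs (adjusted p = 0.000126) and fell by 3.02 in the in vivo iSEPs (adjusted p = 0.000409; -3.55 without mouse 3), to levels that did not differ detectably from those of keratinocytes (95% intervals -1.88 to 0.29 and -1.41 to 0.76). Thbs2 had 745, 946 and 827 FPKM in ADSCs, 9.72, 21.2 and 18.5 in in vitro iSEPs, 7.15, 6.69 and 5.76 in the in vivo iSEPs, and 2.85, 3.00 and 2.06 in keratinocytes. No 2 groups overlapped, and both kinds of iSEP lay between ADSCs and keratinocytes. Thbs2 fell by 5.65 in in vitro iSEPs (adjusted p = 9.17e-09) and fell by 6.80 in the in vivo iSEPs (adjusted p = 2.09e-09). It was above keratinocytes by 2.21 in in vitro iSEPs (adjusted p = 0.000479) and by 1.06 in the in vivo iSEPs (adjusted p = 0.0208). Thbs3 fell in both, to 7.14% and 2.22% (1.17% without mouse 3) of its ADSC mean.

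Spp1, which encodes the integrin ligand osteopontin, had 864, 525 and 383 FPKM in ADSCs, 171, 791 and 526 in in vitro iSEPs, 15.8, 32 and 444 in the in vivo iSEPs, and 322, 347 and 283 in keratinocytes. In vitro iSEPs overlapped both ADSCs and keratinocytes, and 2 of the 3 in vivo iSEP libraries lay below all others. Its difference from ADSCs was -0.43 in in vitro iSEPs (95% interval -2.60 to 1.75, adjusted p = 0.739). In in vivo iSEPs Spp1 fell by 3.15 (adjusted p = 0.0213), and without mouse 3 it fell by 4.57 (adjusted p = 7.11e-05). Tnc, the tenascin-C gene of wound matrix, had 259, 388 and 571 FPKM in ADSCs, 51.5, 91.2 and 37.2 in in vitro iSEPs, 77.8, 194 and 270 in the in vivo iSEPs, and 76.0, 119 and 129 in keratinocytes. In vivo iSEPs overlapped ADSCs in the library of mouse 3. Tnc fell by 2.76 in in vitro iSEPs (adjusted p = 0.000493) and fell by 1.27 in the in vivo iSEPs (adjusted p = 0.0452, or 0.0145 without mouse 3). The in vivo calls were lost without the ADSCs of mouse 2 or the in vivo iSEPs of mouse 1 or 2, and for Spp1 also without the ADSCs of mouse 1 and for Tnc without those of mouse 3, with adjusted p of up to 0.0806 (-2.21 for Spp1) and 0.163 (-0.75 for Tnc). Both were also lost in a fit on the 2 groups alone, and that of Tnc without the filter on low values.

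Ecm1, a secreted glycoprotein gene of skin, had 94.1, 72.1 and 88.4 FPKM in ADSCs, 20.9, 34.9 and 24.7 in in vitro iSEPs, 25.8, 23.2 and 74.7 in the in vivo iSEPs, and 138, 85.0 and 54.4 in keratinocytes. In vitro iSEPs were below every library of ADSCs and keratinocytes. Ecm1 fell by 1.65 in in vitro iSEPs (adjusted p = 0.00703) and fell by 1.22 in the in vivo iSEPs (adjusted p = 0.0351, but adjusted p = 0.057 with mouse as a block). The in vivo call of Ecm1 was also lost without each ADSC library in turn and without the in vivo iSEPs of mouse 1 or 2, where it was -0.99 (adjusted p = 0.112) and -0.92 (adjusted p = 0.13). It was lost without the filter and in a fit on the 2 groups alone as well. Tgfbi, a TGF beta-induced adhesion gene, had 36.1, 8.60 and 10.4 FPKM in ADSCs, 24.6 ± 1.11 in in vitro iSEPs, 62.3, 14.5 and 7.07 in the in vivo iSEPs and 88.3 ± 12.6 in keratinocytes. It was called higher in keratinocytes than in ADSCs (2.48, adjusted p = 0.00816) and passed no other test, at -1.80 in in vitro (adjusted p = 0.103) and -2.15 in in vivo iSEPs (adjusted p = 0.0741) against keratinocytes. Among in vivo iSEPs the value of mouse 1 lay far above the other 2. Without that library the in vivo mean was 10.8 FPKM and Tgfbi was called lower than in keratinocytes (-2.99, adjusted p = 0.00424). Matn2, a filament-forming matrilin gene, had 17.2, 4.34 and 3.03 FPKM in ADSCs and 7.54 ± 2.38, 8.54 ± 0.864 and 4.11 ± 0.356 in the other 3 groups, in the same order, and passed no test. Without the ADSCs of mouse 1 the ADSC mean of Matn2 was 3.69 and it was called higher in in vitro (0.84, adjusted p = 0.0103) and in in vivo iSEPs (1.04, adjusted p = 0.00394). Sparcl1, the relative of Sparc, and the tenascin gene Tnxb had means of at most 0.467 FPKM in each group.

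Of the 11 elastic fibre and microfibril genes tested 10 fell in each kind of iSEP, and the exception in both was Efemp1. Of all genes 21.7% were lower in in vitro iSEPs and 20.0% in the in vivo iSEPs. Fbn2, Mfap2 and Mfap4, counted among those that fell, passed the filter through ADSCs alone and could only be lower elsewhere. Fbn1, the gene of the microfibril backbone protein fibrillin-1 (chromosome 2, 125300594 to 125506438), had 345, 278 and 288 FPKM in ADSCs, 1.28, 4.39 and 3.02 in in vitro iSEPs, 0.341, 1.86 and 2.32 in the in vivo iSEPs, and 0.651, 0.682 and 0.453 in keratinocytes. It fell by 6.37 in in vitro iSEPs (adjusted p = 7.26e-08) and fell by 7.02 in the in vivo iSEPs (adjusted p = 3.43e-08), which left no overlap with ADSCs. Mfap5, a microfibril-associated gene, fell from 258 ± 60.7 FPKM to 1.63 ± 1.27 in in vitro iSEPs and 0.0477 ± 0.00306 in the in vivo iSEPs. The in vivo value rests on an estimated 2 reads in each library, and that of in vitro iSEPs on 8, 83 and 93. Mfap2 fell to 1.26% and 0.315% of its ADSC mean and Emilin1, an elastic fibre glycoprotein gene, to 6.78% and 1.30%, where without mouse 3 the in vivo values were 0.0750% and 0.393%. Fbn2 and Mfap4, at 5.73 ± 2.98 and 8.93 ± 7.57 FPKM in ADSCs, fell to means of at most 0.0927 FPKM in both. Mfap4 was at 0 in all 3 keratinocyte libraries, where 3 reads would correspond to 0.0684 FPKM, so it was at least 130.5-fold lower than in ADSCs there. The limit is 68.4-fold without the ADSCs of mouse 1, where Mfap4 had 17.4 FPKM against 6.47 and 2.90. The members' median of -3.54 in keratinocytes could not change with Mfap4 at that limit, since its values of -3.02 and, at the limit, -2.93 both lie above the median. Eln, the elastin gene, was at 2.47, 0.393 and 0.563 FPKM in ADSCs and at most 0.508 in every other library.

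The fibulin family, which tethers microfibrils, elastin and basement membrane, was divided. Fbln2 had 1474, 1294 and 1231 FPKM in ADSCs, 42.4, 140 and 76.3 in in vitro iSEPs, 115, 103 and 400 in the in vivo iSEPs, and 233, 276 and 287 in keratinocytes. In vitro iSEPs were below keratinocytes in every library, and in vivo iSEPs overlapped keratinocytes through mouse 3. Fbln2 fell by 4.09 in in vitro iSEPs (adjusted p = 3.8e-05) and fell by 2.97 in the in vivo iSEPs (adjusted p = 0.000469; -3.60 without mouse 3). Efemp2, which encodes fibulin-4, had 338, 265 and 293 FPKM in ADSCs, 2.90, 9.85 and 6.95 in in vitro iSEPs, 1.43, 3.12 and 6.42 in the in vivo iSEPs, and 7.27, 6 and 5.97 in keratinocytes. It fell by 5.42 in the former kind of iSEP (adjusted p = 8.26e-07) and fell by 6.15 in the latter (adjusted p = 3.1e-07). Its relative Efemp1, which encodes fibulin-3, had 142, 41.6 and 34.1 FPKM in ADSCs and means of 71.8 ± 42.8, 76.8 ± 23.4 and 72.3 ± 5.76 in the in vitro iSEPs, the in vivo iSEPs and the keratinocytes. All 4 groups of Efemp1 overlapped, and its differences from ADSCs were 0.10 in in vitro iSEPs (95% interval -1.07 to 1.27) and 0.34 in the in vivo iSEPs (-0.83 to 1.5). Fbln5 had 46.6, 33.3 and 34.5 FPKM in ADSCs, 2.23, 4.76 and 1.28 in in vitro iSEPs, 3.48, 6.80 and 14.8 in the in vivo iSEPs, and 0.728, 0.288 and 0.316 in keratinocytes. Every iSEP library lay above every keratinocyte library and below every ADSC library. Fbln5 was above keratinocytes by 2.52 in the in vivo iSEPs (adjusted p = 0.00578, or 0.0048 without mouse 3) and by 1.29 in in vitro iSEPs (adjusted p = 0.0764, but 0.0239 with a pseudocount of 0.1 and 0.0484 in a fit on the 2 groups alone). Fbln1 kept 31.6%, 30.6% and 30.9% of its ADSC mean in the in vitro iSEPs, the in vivo iSEPs and the keratinocytes, and fell in all 3. Its ADSC values were 45.8, 18.3 and 16.9 FPKM, so mouse 1 raised that mean and lowered these percents.

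The 4 latent TGF beta binding genes went both ways. Ltbp4 had 4.16, 1.85 and 1.73 FPKM in ADSCs, 9.67, 9.04 and 5.12 in in vitro iSEPs, 6.59, 11.1 and 9.70 in the in vivo iSEPs, and 3.60, 2.89 and 3.36 in keratinocytes. All 6 iSEP libraries were above all ADSC and keratinocyte libraries. Ltbp4 rose by 1.34 in in vitro iSEPs (adjusted p = 0.00223) and by 1.54 in the in vivo iSEPs (adjusted p = 0.00104), and it was above keratinocytes by 1.02 (adjusted p = 0.0429, but adjusted p = 0.0571 with mouse as a block) and 1.22 (adjusted p = 0.0273). Both keratinocyte calls were lost without each keratinocyte library in turn and without the iSEPs of mouse 2, and the first also without mouse 1 of the in vitro iSEPs, with adjusted p of up to 0.142 (0.96) and 0.121 (1.08). The first was lost without the filter too. Ltbp1 had 17.4, 4.39 and 6.88 FPKM in ADSCs, 16.3, 19.7 and 24.7 in in vitro iSEPs, 8.71, 10.4 and 19.7 in the in vivo iSEPs, and 16.3, 12.1 and 12 in keratinocytes. The ADSCs of mouse 1 overlapped the iSEPs. Ltbp1 was called higher in in vitro iSEPs (1.19, adjusted p = 0.0286), a call lost under median scaling, under quantile normalization and without the ADSCs or the in vitro iSEPs of mouse 2 or 3, with an adjusted p of up to 0.121 (0.80). Without the ADSCs of mouse 1 it was also called higher in in vivo iSEPs (1.02, adjusted p = 0.0278). Ltbp2 fell to 1.78% and 0.639% (0.196% without mouse 3) of its ADSC mean of 87.6 ± 30.1 FPKM, and Ltbp3 to 15.4% and 14.4% of 28.2 ± 9.82.

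Of 4 basement membrane genes 3 fell and Agrn rose in each comparison with ADSCs, where 20.0% to 21.7% of all genes were lower and 27.6% to 32.8% higher. Agrn encodes agrin, a heparan sulfate proteoglycan of basement membranes (chromosome 4, 156165290 to 156197488). It had 6.92, 4.65 and 4.97 FPKM in ADSCs, 76.6, 43.8 and 25.9 in in vitro iSEPs, 38.3, 81.5 and 76.4 in the in vivo iSEPs, and 47.5, 36.2 and 40.8 in keratinocytes. Every epithelial library was above every ADSC library, and the 3 epithelial groups overlapped. Agrn rose by 2.82 ± 0.36 in in vitro iSEPs (adjusted p = 6.42e-05), by 3.29 ± 0.36 in the in vivo iSEPs (adjusted p = 2.17e-05) and by 2.71 ± 0.36 in keratinocytes (adjusted p = 8.5e-05). Hspg2, the perlecan gene, had 115 ± 13.7 FPKM in ADSCs and 7.82 ± 3.03, 20.7 ± 18.1 and 19.0 ± 2.45 in the in vitro iSEPs, the in vivo iSEPs (10.4 without mouse 3) and the keratinocytes, and fell in each. Nid1, the nidogen-1 gene, fell from 252 ± 11.2 FPKM to 5.14 ± 2.0 in in vitro iSEPs and 5.65 ± 5.73 (2.39 without mouse 3) in the in vivo iSEPs. Nid2, its paralog, fell from 26.2, 13.7 and 23.2 FPKM in ADSCs to at most 0.034 FPKM, or an estimated 0 to 5 reads, in each of the other 9 libraries. Nid2 passed the filter through ADSCs alone, so it could only be lower elsewhere.

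Among the proteoglycans Bgn, the biglycan gene, was the most abundant in ADSCs, with 2296, 1850 and 1998 FPKM (chromosome X, 73483601 to 73495936). It had 26.2, 119 and 71.9 in in vitro iSEPs, 1.2, 3.15 and 32.8 in the in vivo iSEPs, and 17.6, 18.9 and 12.9 in keratinocytes. In vitro iSEPs lay above all keratinocyte libraries, and in vivo iSEPs of mice 1 and 2 lay below them. Bgn fell by 5.04 in in vitro iSEPs (adjusted p = 0.000378) and fell by 8.24 in the in vivo iSEPs (adjusted p = 1.02e-05). Without mouse 3 the in vivo difference of Bgn was -9.40 (adjusted p = 1.19e-07), and its remaining level was 0.106% in place of 0.604%. Dcn, the decorin gene, had 116, 70.7 and 27.2 FPKM in ADSCs, 18, 30.2 and 24.4 in in vitro iSEPs, 0.608, 1.28 and 12.7 in the in vivo iSEPs, and 17.2, 19.2 and 15.6 in keratinocytes. In vitro iSEPs overlapped both ADSCs, through the ADSCs of mouse 3, and keratinocytes, while in vivo iSEPs overlapped no other group. The Dcn difference from ADSCs was -1.33 in in vitro iSEPs (95% interval -2.87 to 0.22, adjusted p = 0.134) and -4.07 in the in vivo iSEPs (adjusted p = 0.000615). Without mouse 3 the latter was -5.01 (adjusted p = 8.63e-06), and the remaining level 1.33% in place of 6.82%. Vcan, the large proteoglycan versican, fell to 9.74% and 2.67% (1.06% without mouse 3) of its ADSC mean of 101 ± 37.9 FPKM. The leucine-rich genes Fmod and Ogn fell to 0.310% and 0.757% in in vitro iSEPs and 0.0268% and 0.376% in the in vivo iSEPs. Lum, the lumican gene, varied from 0.692 to 10.6 FPKM in ADSCs and did not exceed 0.136 elsewhere. Pcolce, whose product speeds procollagen maturation, had 483, 413 and 386 FPKM in ADSCs, 5.51, 19.8 and 14.1 in in vitro iSEPs, 2.66, 2.08 and 5.44 in the in vivo iSEPs, and 4.15, 4.71 and 3.48 in keratinocytes. It fell by 5.07 in in vitro iSEPs (adjusted p = 8.52e-07) and fell by 6.68 in the in vivo iSEPs (adjusted p = 9.17e-08).

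Against keratinocytes most members passed no test. In in vitro iSEPs 7 of 36 were higher and 2 lower, where 5.22% of all genes were higher and 6.12% lower. The 7 were Postn, Sparc and Thbs2 with Pcolce (1.32, adjusted p = 0.047), Fbn1 (1.21, adjusted p = 0.0489), Mfap5 (1.18, adjusted p = 0.046) and Ltbp4. The 2 lower were Fbln2 (-1.77, adjusted p = 0.0425) and Ecm1 (-1.68, adjusted p = 0.03). With mouse as a block 4 were higher (Postn, Sparc, Thbs2 and Fbn1) and 1 lower (Tgfbi, -1.80, adjusted p = 0.0497), and Fbln2, Ecm1, Pcolce, Mfap5 and Ltbp4 had adjusted p between 0.05003 and 0.0635. Postn, Sparc and Thbs2 kept the call under all 14 alternatives tried. Fbln2, Pcolce, Mfap5 and Fbn1 lost it without each keratinocyte library in turn and without mouse 3 of the in vitro iSEPs, Pcolce, Mfap5 and Fbn1 also without those of mouse 2, and Fbln2 without those of mouse 1. Ecm1 lost it without mouse 1 or 3 of the iSEPs or mouse 1 or 2 of the keratinocytes. The values of these 5 genes then ranged from -1.86 to -1.34 for the lower and from 0.87 to 1.40 for the higher genes, with adjusted p of up to 0.148. All 5 also lost it without the filter, Fbn1 with a pseudocount of 0.1 and under median scaling, and Pcolce and Mfap5 in a fit on the 2 groups alone. Emilin1 was called higher without the in vitro iSEPs of mouse 1 (1.29, adjusted p = 0.033). Of the 11 stromal markers 8 were also higher in in vitro iSEPs than in keratinocytes, with a median of 1.62 against 0.35 for the members, and their part was not tested. The in vitro iSEP libraries ordered by the mean log2 level of the stromal markers were those of mice 1, 3 and 2 from low to high, and 18 of the 36 members had that order, as had 23.4% of all genes kept. In the other groups, each by its own marker order, these were 5 members and 15.8% of genes in the in vivo iSEPs, 6 and 7.93% in keratinocytes, and 9 and 15.9% in ADSCs.

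In in vivo iSEPs 4 members were higher than in keratinocytes and none lower, where 3.41% of all genes were higher and 4.08% lower. The 4 were Sparc, Fbln5, Ltbp4 and Thbs2. Sparc and Fbln5 kept the call under all 14 alternatives. Thbs2 lost it without each keratinocyte library in turn and without the in vivo iSEPs of mouse 2, with values of 0.94 to 1.13 and adjusted p of up to 0.0943. With mouse as a block Tgfbi was called lower (-2.15, adjusted p = 0.0329). Median scaling moved the share of called genes that were higher from 45.5% to 56.5% and left the members' counts at 4 and 0. Without mouse 3 the same 4 were higher, against 5.40% of all genes, and 6 were lower, against 7.61%, namely Bgn (-2.52), Dcn (-3.25), Ecm1 (-1.77), Fbln2 (-1.27), Spp1 (-3.75) and Vcan (-2.09), with adjusted p between 0.00151 and 0.0472. Of the 11 stromal markers 1 was higher in the in vivo iSEPs with all libraries. Of the 5 smooth muscle and pericyte markers 4 were tested and 1 was higher, Acta2, at 798, 2660 and 2943 FPKM in the in vivo iSEPs against 183 to 438 in keratinocytes. Cnn1 had 4.11, 13.9 and 31.4 against 1.79 to 3.39 (adjusted p = 0.0518), and Myh11 0.071, 1.90 and 7.78 against 0.174 to 0.233 (adjusted p = 0.196). Des and the pericyte gene Rgs5 did not exceed 0.097 FPKM in either group, and the part of these markers was not tested.

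**Figure D5:**
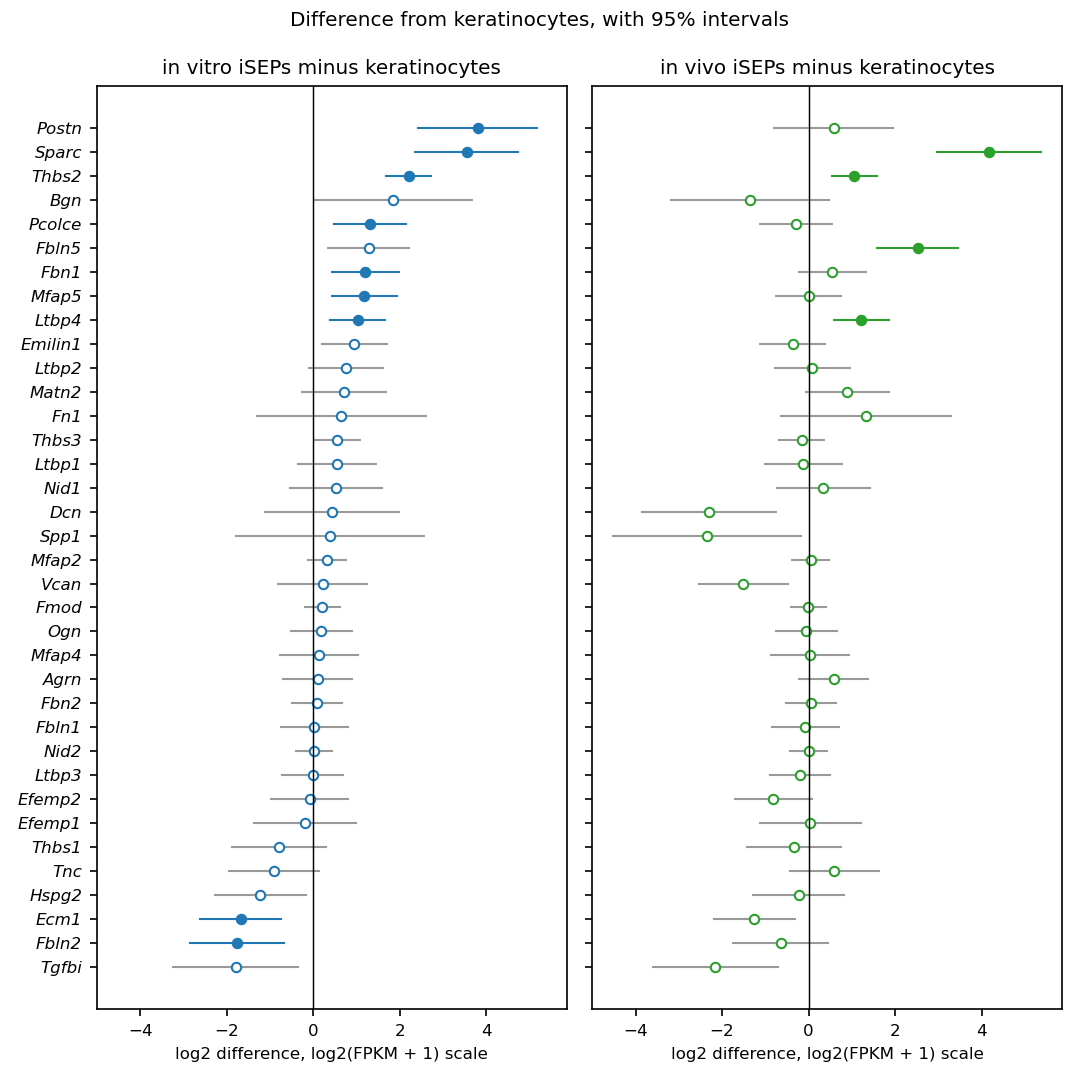
Log2 difference from keratinocytes with its 95% interval for 36 matrix genes in in vitro (left) and in vivo iSEPs (right), filled where the adjusted p is below 0.05. Sparc and Thbs2 are to the right in both panels, Postn in the left panel and Fbln5 in the right.

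Between the 2 kinds of iSEP 2 members were lower in the in vivo iSEPs and none higher, against 0.946% and 0.679% of all genes. They were Postn (-3.21 ± 0.62, adjusted p = 0.0324) and Thbs2 (-1.15 ± 0.23, adjusted p = 0.0398), in both of which every in vivo library was below every in vitro library. With mouse as a block neither passed (adjusted p = 0.0504 for both). Both calls were lost without mouse 2 or 3 of the in vitro iSEPs or mouse 2 of the in vivo iSEPs, and that of Postn without the in vivo iSEPs of mouse 1, with values of -3.04 to -2.68 and -1.17 to -0.94. Without mouse 3 in vivo 7 were lower, against 2.07% of all genes (0.841% were higher), namely Postn, Bgn, Dcn, Emilin1, Pcolce, Spp1 and Vcan, while Thbs2 had an adjusted p of 0.0644. Without the in vitro iSEPs of mouse 1 Emilin1 (-1.66), Mfap5 (-1.66) and Pcolce (-2.09) were also called lower, and without the in vivo iSEPs of mouse 1 Tnc was called higher (2.01), with adjusted p between 0.00793 and 0.038. Of the 11 stromal markers 5 were lower in the in vivo iSEPs, with a median of -1.45 against -0.20 for the members, and their part was not tested.

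Genes around these members were counted from further lists, to be read against the 21.7% lower and 32.1% higher of all genes in in vitro iSEPs against ADSCs. Of 25 other matrix glycoprotein genes tested 19 fell and 4 rose in in vitro iSEPs against ADSCs. Vwa1, which encodes a perlecan-binding protein, rose from 0.643 ± 0.282 to 57.4 ± 25.7 FPKM (5.06, adjusted p = 1.33e-07) and reached 152 ± 34.8 in the in vivo iSEPs, and Papln rose from 0.0577 ± 0.0199 to 10.4 ± 1.05 (3.43, adjusted p = 2.24e-06), also above the 3.16 ± 1.84 of keratinocytes (adjusted p = 0.00823). Nov and Svep1 fell from 104 ± 94.0 and 43.3 ± 6.42 FPKM to 0.0897 ± 0.0359 and 0.0700 ± 0.0114. All 6 other matrix proteoglycan genes fell, with Prelp and Aspn falling from 44.1 ± 2.93 and 57.3 ± 16.1 to 0.22 ± 0.164 and 1.98 ± 0.639. Of 12 cell surface proteoglycan genes 6 fell and 2 rose. The 2 were Sdc1, the syndecan of epithelia, from 70.2 ± 8.36 to 497 ± 28.8 FPKM (2.81, adjusted p = 3.89e-07), and Ptprz1 (1.77, adjusted p = 0.00423), while Gpc6 fell by 4.40 and Gpc4 fell by 2.12. Of 27 enzymes of glycosaminoglycan synthesis 20 fell and 1 rose. Csgalnact1, which starts chondroitin chains, fell from 85.5 ± 9.66 to 0.687 ± 0.269 FPKM and Hs6st2 from 55.8 ± 6.80 to 0.513 ± 0.274. Chst15 rose from 1.69 ± 0.333 to 11.1 ± 1.28 FPKM (adjusted p = 8.38e-05), above the 1.14 ± 1.08 of keratinocytes (adjusted p = 0.000574). Of 9 integrin subunit genes for fibronectin and osteopontin 7 fell and 1 rose. Itga5, a subunit of the main fibronectin receptor, fell from 143 ± 60.4 to 18.1 ± 5.91 FPKM and Itgb3 from 6.14 ± 1.28 to 0.628 ± 0.343, while the epithelial subunit Itgb6 rose from 0.0243 ± 0.0180 to 27.4 ± 12.1. Of the genes named here Nov, Svep1, Prelp and Gpc6 reached 1 FPKM only in ADSCs, and Vwa1, Papln and Itgb6 only outside ADSCs. They passed the filter through those libraries alone. In in vivo iSEPs against ADSCs, where 20.0% of all genes were lower and 27.6% higher, the lower and higher counts of these lists were 18 and 3 of the other glycoproteins, 4 and 1 of the other matrix proteoglycans, 7 and 3 of the cell surface proteoglycans, 18 and 1 of the enzymes, and 6 and 1 of the integrin subunits.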

How the data were processed

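RNA was measured in 12 libraries, 3 per group. Per the labels' protocols, a Zymo Research kit was used for extraction and an Illumina TruSeq RNA kit for the libraries. FPKM of 24537 genes in mm10 were deposited in 1 table. FastQC 0.11.5, STAR 2.5.1b and HOMER were used, per the submitters' processing notes. Reads in RefSeq exons on the transcript's strand were summed per gene and scaled to FPKM by HOMER, per the file headers. Whether the kit marks strand was not stated in the labels, and if it does not, reads of overlapping or antisense genes could be split wrongly. The table's 3 columns of values that match no sample were not used.

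FPKM are not counts, so limma 3.58.1 in R 4.3.3 was run on log2(FPKM + 1), with a pseudocount of 1 and genes that reached 1 FPKM in 3 or more libraries (12364). A single model with 4 group means was fitted to all 12 libraries with a mean-dependent variance trend, and 6 comparisons were tested, two-sided, with Benjamini-Hochberg adjustment over all genes kept and a threshold of 0.05. Standard errors and 95% intervals come from that fit. The script was tested on simulated data. Reads were estimated from the steps of low FPKM values, which were whole reads for 100% of low values at a tolerance of 0.15 reads. Intervals from estimated reads were not made, and few reads limit the precision of low genes. Promoter sequences were taken from RefSeq (GRCm38.p6).

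The labels give the same mouse number in each group, so a number marks 1 animal. The deviations of same-numbered libraries from their group means had correlations of -0.178 to 0.210 over 18 pairs, and 6 were over 0.1. The test was made without mouse as a block, and the block was an alternative, as were the pseudocount, the filter, median scaling, quantile normalization, library weights, a fit on only the groups compared, and leaving out each library.

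The members and the other gene lists were chosen with earlier results of these data known. Values per library are given for Fn1 and Sparc, for the 12 members highest in ADSCs, for members called between the 2 kinds of iSEP or called higher than ADSCs in iSEPs, and for up to 4 called members each with the greatest rise and the greatest fall against keratinocytes in either kind of iSEP. Values per library of Nid2, Dcn, Tgfbi, Efemp1 and Fbln1, in part for some groups only, and reads per library of Mfap5 were added after they were seen. Of each other list the 2 called genes that rose most and the 2 that fell most in in vitro iSEPs against ADSCs, with at least 5 FPKM in the higher group, are named.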

Additional observations from a re-analysis of the deposited data

Results flagged for a closer look

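The fall from ADSCs differed between the 2 kinds of iSEP for 2 members, by the test of in vivo against in vitro iSEPs in the limma fit. Postn was lower in in vivo iSEPs, with a difference of -3.21 on the log2(FPKM + 1) scale (adjusted p = 0.0324, lower in 3 of 3 libraries), and so was Thbs2, with a difference of -1.15 (adjusted p = 0.0398, lower in 3 of 3 libraries). Over the alternatives the adjusted p ranged from 0.00163 to 0.336 for Postn and from 0.00539 to 0.349 for Thbs2.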

How the results depend on the processing

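The alternatives were a pseudocount of 0.1, no filter, a filter at 5 FPKM, median scaling, quantile normalization, mouse as a replicate block, library weights, a fit on the 2 groups compared and leaving out each library. No called member reversed under them. All 14 kept the call of 30 of 31 members in in vitro iSEPs against ADSCs, 29 of 32 in in vivo iSEPs against ADSCs, 29 of 29 in keratinocytes against ADSCs, 3 of 9 and 2 of 4 in in vitro and in vivo iSEPs against keratinocytes, and 0 of 2 between the kinds of iSEP. The cause was not tested. In in vitro iSEPs against keratinocytes members lower and higher (2 and 7) became 0 and 3 without a filter, 1 and 4 with the replicate block, and 5 and 13 with library weights, where 3751 genes were called in all, and 4 were lower with 2 groups only. In in vivo iSEPs against keratinocytes members lower (0) became 1 with the replicate block and 8 with library weights, where 4189 genes were called, and 424 genes were called with 2 groups only. Between the kinds of iSEP members lower (2) became 0 without a filter, with the replicate block and with 2 groups only, where 128 genes were called with the block and 1 with 2 groups. With library weights 10 were lower and 1 higher among 743 genes called. The replicate block changed no other call of a member than those given beside the results, and of the other genes named it took Aspn and Vwa1 out of the calls between the kinds of iSEP.

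Leaving out 1 library at a time gave these lowest and highest counts. Against ADSCs, 28 to 28 members were lower, 2 to 4 higher and 5791 to 6297 genes called in in vitro iSEPs, 27 to 30, 2 to 4 and 5006 to 6281 in in vivo iSEPs, and 27 to 28, 2 to 3 and 5556 to 6055 in keratinocytes. Against keratinocytes they were 0 to 2, 3 to 7 and 524 to 1180 in in vitro iSEPs, and 0 to 6, 2 to 4 and 358 to 1676 in in vivo iSEPs. Between the kinds of iSEP they were 0 to 7, 0 to 1 and 58 to 360.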
